A study of Rattus norvegicus with 12 samples.

Results

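Myostatin, the TGF-beta and BMP ligands and their partners were followed in the pubocaudalis, a muscle of the rat pelvic floor, after a simulated birth injury. The set held 10 genes chosen by symbol from the 30206 genes of the count table: the ligands Mstn, Inhba, Tgfb1, Tgfb2, Tgfb3, Bmp4 and Bmp7, the inhibitor Fst, the receptor gene Acvr2b and the matrix gene Ltbp2. All 10 were found and all 10 passed the filter on low counts. The study asked how nursing changes the recovery of this muscle.

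Sprague-Dawley rats, 3 months old, received simulated birth injury (SBI) by balloon distention of the vagina on gestation day 20. In the SBI groups the pups were taken away after birth, and in the SBI + Lac groups the dams nursed. Muscle was collected at 1 week or 3 weeks, and the 4 groups are named by time (1wk or 3wk) followed by SBI or SBI + Lac. Each group had 3 libraries, each made from the pooled RNA of 2 rats (6 rats per group). All 4 groups were injured, so no comparison here is with uninjured muscle, and a difference between rats of a pool could not be seen.

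Ligands of the TGF-beta superfamily are secreted as dimers that bind pairs of type I and type II receptor kinases at the cell surface, which then phosphorylate Smad transcription factors. Myostatin and the activins restrain muscle growth through the activin type II receptors, and follistatin binds these ligands and keeps them from the receptors. TGF-betas are stored in the matrix in a latent form and are best known in injured muscle for driving matrix production, whereas BMP signaling helps to maintain muscle mass.

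Library depth ran from 10082734 to 75634391 counts, with both extremes at 3 weeks. Expression is given as normalized CPM (counts scaled to library size and by the trimmed mean of M values), and levels are not compared between genes because transcript lengths were not used. Of 9 listed markers of mature myofibers, 8 were matched (Myh1 was not), and they summed to 74978 to 197888 CPM per library, the level of a tissue made mostly of muscle fibers. The marker sums also differed between groups. At 3 weeks the mature myofiber sum ran from 116552 to 158684 in 3wk SBI and from 171567 to 197888 in 3wk SBI + Lac, and the sum of 6 regenerating-fiber genes ran from 246 to 765 and from 192 to 234. Milk-protein genes (5 listed) summed to 0.330 to 36.8 in 3wk SBI + Lac and to at most 0.0120 in 3wk SBI. At 3 weeks the satellite cell sum (2 genes) ran from 6.75 to 10.1 without and from 3.08 to 5.14 with lactation. The T cell sum (4 genes) ran from 8.11 to 15.4 and from 2.64 to 4.49. It was mostly Cd28, at 12.7, 6.63 and 12.0 CPM without and 3.26, 2.13 and 2.53 with lactation. Cd3e, Cd3d and Cd3g were also lower in value but lay at 0 to 1.74 CPM, and their groups overlapped. The tendon sum (3 genes) ran from 13.4 to 15.2 and from 21.8 to 23.8. Its rise was that of Scx (1.06 on the log2 scale), whereas Tnmd and Mkx were lower in value (-1.18 and -0.30). In bulk RNA, fewer cells of a type and less RNA per cell cannot be told apart.

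**Figure D1:**
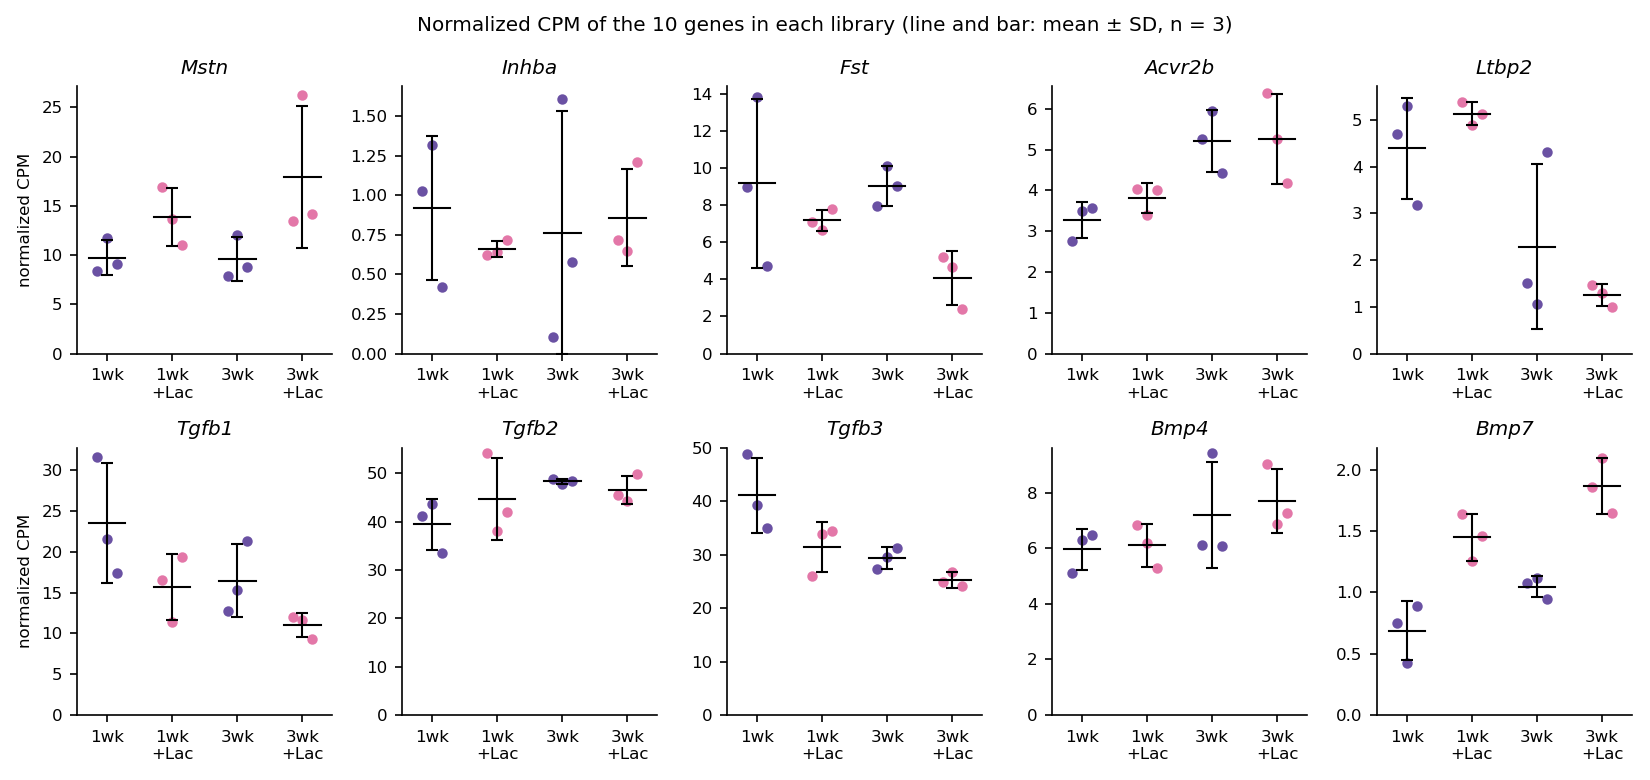
Normalized CPM (y axis, from 0) of each of the 10 genes in the 12 libraries, by group (x axis); points are libraries, purple without and pink with lactation, and the line and bar are the mean and SD of 3 libraries. The 3wk SBI + Lac points lie above the 3wk SBI points for Mstn and Bmp7 and below them for Fst, Tgfb1 and Tgfb3.

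No member passed the test for lactation at either time. A gene passed where the Benjamini-Hochberg adjusted p of edgeR's quasi-likelihood test, over 14599 genes, was under 0.05. At 1 week 0 of 10 passed in edgeR, against 0.569% of all tested genes, and 3 of 10 had an unadjusted p under 0.05, against 18.9% of all genes. DESeq2 on all 12 libraries called 1 of the 10 at 1 week, Bmp7, against 5.85% of the genes it gave an adjusted p. At 3 weeks 0 of 10 passed in edgeR, against 2.54% of all genes, and 5 of 10 had an unadjusted p under 0.05, against 21.1%. DESeq2 called 2 of the 10 at 3 weeks, Mstn and Fst, against 7.93% of its genes.

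The libraries of lactating and non-lactating rats did not overlap for 2 of the 10 genes at 1 week, where 28.4% of all genes did not overlap, and for 5 of the 10 at 3 weeks, where 22.3% did not. At 1 week Bmp7 was higher and Tgfb3 lower in every lactating library. At 3 weeks Mstn and Bmp7 were higher, and Fst, Tgfb1 and Tgfb3 lower, in every lactating library. The median log2 fold change over the 10 genes was 0.11 at 1 week and -0.0086 at 3 weeks, beside -0.0038 and -0.019 over all genes.

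**Figure D2:**
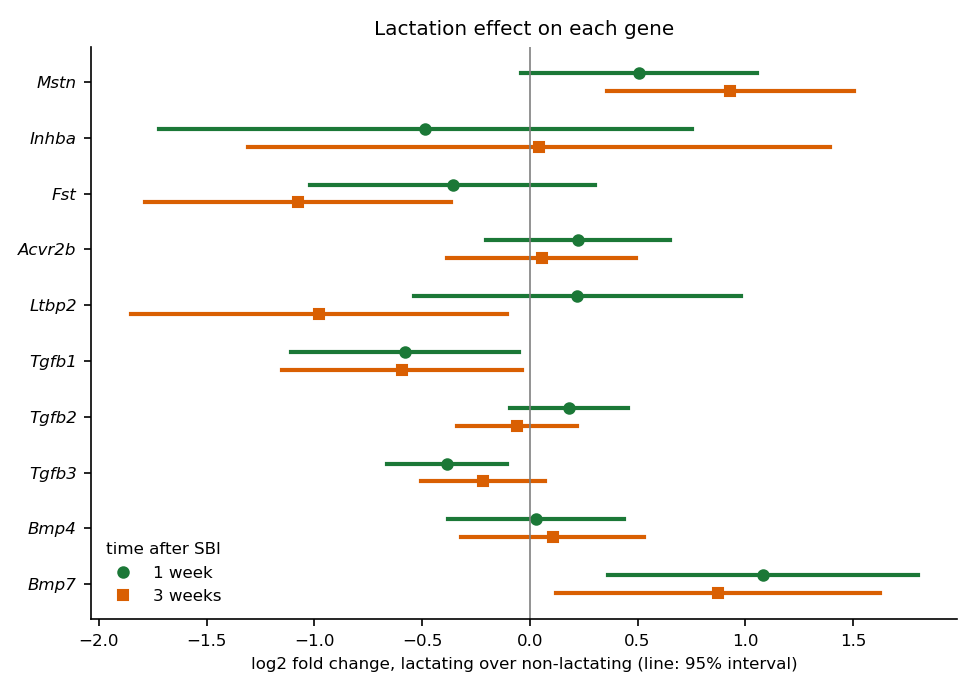
Log2 fold change of lactating over non-lactating libraries (x axis) for each gene (y axis), with circles at 1 week, squares at 3 weeks and lines for the 95% interval. At 3 weeks the intervals of Mstn, Fst, Ltbp2, Tgfb1 and Bmp7 lie to one side of 0, although no gene passed after adjustment.

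Mstn encodes myostatin, the secreted brake on muscle mass made by the myofibers themselves. It stood at 8.38, 11.8 and 9.07 CPM in 1wk SBI and at 17.0, 13.6 and 11.1 CPM in 1wk SBI + Lac. At 3 weeks the 3wk SBI libraries held 7.83, 12.1 and 8.77 CPM and the 3wk SBI + Lac libraries 13.4, 26.2 and 14.2 CPM. The ranges overlapped at 1 week and were separate at 3 weeks, with replicate 2 of 3wk SBI + Lac far above its group. The log2 fold change with lactation was 0.51 ± 0.25 (SE) at 1 week and 0.93 ± 0.27 at 3 weeks, with adjusted p of 0.296 and 0.0783 in edgeR. Leaving out that replicate 2 gave 0.52 at 3 weeks. DESeq2 gave the 3-week difference of Mstn an adjusted p of 0.0165 on all 12 libraries and 0.0200 on the 6 compared. The summed mature myofiber markers were higher in the same 3 libraries, with 6 of 8 higher in value and 0 of 8 past the test at 3 weeks, and their part in the Mstn difference was not tested.

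Fst encodes follistatin, the soluble antagonist of myostatin and activins. Its 1wk SBI libraries spread widely, at 8.96, 13.8 and 4.73 CPM, around the narrow 7.08, 6.68 and 7.79 CPM of 1wk SBI + Lac. At 3 weeks Fst stood at 7.94, 10.1 and 9.05 CPM in 3wk SBI and at 5.18, 4.65 and 2.42 CPM in 3wk SBI + Lac. All lactating libraries were then below all non-lactating ones, and the lowest value came from a library with 22 Fst counts. The log2 fold change was -0.36 ± 0.31 (SE) at 1 week and -1.08 ± 0.33 at 3 weeks, with adjusted p of 0.556 and 0.0925 in edgeR. Without replicate 2 of 1wk SBI the 1-week value turned to 0.065, whereas at 3 weeks it ran from -1.24 to -0.87 over the 6 libraries left out in turn. Fst at 3 weeks had an adjusted p of 0.0499 in edgeR fitted on only the 6 libraries compared, and of 0.0175 and 0.00384 in DESeq2 on all 12 and on those 6. The summed regenerating-fiber markers were lower in the same 3 libraries, with 5 of 6 lower in value and 0 of 6 past the test, and their part in the Fst difference was not tested.

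Because follistatin neutralizes myostatin, the CPM of Mstn was also divided by that of Fst within each library, a ratio chosen after the values were seen and given as a description. In 1wk SBI it was 0.936, 0.850 and 1.92, and 1wk SBI + Lac had 2.39, 2.04 and 1.42. In 3wk SBI the ratio was 0.986, 1.20 and 0.969, and in 3wk SBI + Lac 2.59, 5.64 and 5.86. The 1-week groups overlapped and the 3-week groups did not. The ratio was 1.66 times as high with lactation at 1 week and 4.22 times as high at 3 weeks (difference of mean log2 values). With each library left out in turn, the 3-week log2 difference of the ratio ran from 1.87 to 2.46. At 3 weeks Mstn was higher and Fst lower in every lactating library. The separate 3-week ratios and their kept sign follow from this and add no further evidence.

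**Figure D3:**
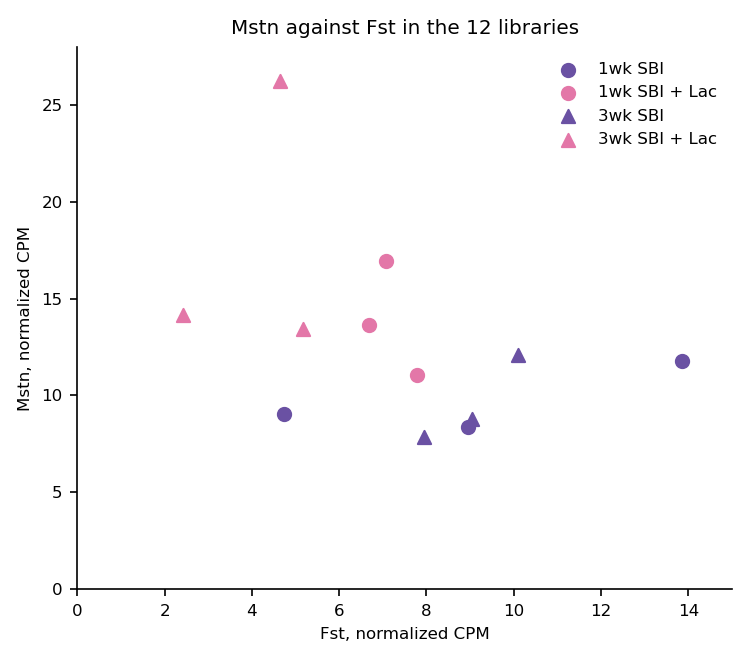
Mstn (y axis) against Fst (x axis), both in normalized CPM, in the 12 libraries; color gives lactation and shape gives time. The 3wk SBI + Lac triangles sit at 2.42 to 5.18 CPM of Fst and 13.4 to 26.2 CPM of Mstn, and the 3wk SBI triangles at 7.94 to 10.1 and 7.83 to 12.1.

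Inhba encodes the subunit of activin A, which shares the type II receptors with myostatin. It was at 1 to 78 counts per library, lowest in 3wk SBI and highest in 1wk SBI. Its CPM lay between 0.107 and 1.61, with both of these values in 3wk SBI. The lactation effect was -0.48 ± 0.58 (SE) at 1 week and 0.04 ± 0.63 at 3 weeks, with 95% intervals of -1.72 to 0.75 and -1.31 to 1.39, so a difference in Inhba was not detectable with these libraries. Acvr2b encodes one of those receptors, activin receptor type IIB. At 1 week its level was 3.27 ± 0.446 CPM (SD, n = 3) without lactation and 3.81 ± 0.366 with it, and at 3 weeks 5.21 ± 0.753 and 5.27 ± 1.10. Lactation moved it by 0.22 (95% interval -0.20 to 0.65) at 1 week and by 0.06 (-0.38 to 0.49) at 3 weeks on the log2 scale, within the spread of the libraries.

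Bmp7 encodes a BMP ligand that signals through Smads and opposes TGF-beta in several tissues. The study itself singled out Bmp7 from these libraries, so its direction here is not independent evidence. In 1wk SBI it stood at 0.753, 0.422 and 0.890 CPM, and in 1wk SBI + Lac at 1.64, 1.25 and 1.46 CPM. In 3wk SBI it stood at 1.07, 1.11 and 0.948 CPM, and in 3wk SBI + Lac at 1.86, 2.10 and 1.65 CPM. Every lactating library exceeded every non-lactating library of its time, from 10 to 129 counts per library. The log2 fold change was 1.08 ± 0.34 (SE) at 1 week and 0.87 ± 0.35 at 3 weeks, with adjusted p of 0.111 and 0.171 in edgeR. DESeq2 on all 12 libraries gave Bmp7 an adjusted p of 0.0354 at 1 week and 0.108 at 3 weeks. At 1 week, where Bmp7 and Tgfb3 had separate groups, other sums were separate too. Without and with lactation the erythroid sum (4 genes) ran from 242 to 414 and from 556 to 780. The macrophage sum (8 genes) ran from 523 to 554 and from 330 to 462, and the regenerating-fiber sum from 1521 to 3481 and from 805 to 1234. That regenerating-fiber sum was mostly Myh3 and Myh8, and of its 6 genes 5 were lower and Myod1 higher in value (0.04). The smooth muscle sum (4 genes, 3 higher and 1 lower in value) ran from 193 to 219 and from 241 to 253. The milk-protein sum was 0 without and 0.557 to 2.80 with lactation. The satellite cell sum ran from 9.51 to 15.2 and from 5.05 to 6.27, and the T cell sum from 11.6 to 24.1 and from 4.61 to 10.3. That T cell sum was mostly Cd28, at 23.6, 12.2 and 11.1 CPM without and 9.64, 4.58 and 7.45 with lactation. Cd3e, Cd3d and Cd3g were lower in value, but their groups overlapped. The mature myofiber sums also overlapped at 1 week, with 8 of 8 genes higher in value and 0 past the test. The part of these cells in the values of Bmp7 and Tgfb3 was not tested. The effects on Bmp7 at the 2 times differed by -0.21 (95% interval -1.24 to 0.82).

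Bmp4, a second BMP ligand, lay between 5.13 and 9.41 CPM in all 12 libraries. Its lactation effect was 0.03 ± 0.19 (SE) at 1 week and 0.11 ± 0.20 at 3 weeks, with 95% intervals of -0.38 to 0.44 and -0.32 to 0.53. The groups overlapped at both times, and the sign of this small difference turned with single libraries left out.

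The 3 TGF-beta isoforms had unlike values. Tgfb1, the isoform most tied to inflammation and fibrosis, stood at 31.7, 21.5 and 17.4 CPM in 1wk SBI and at 16.6, 11.4 and 19.3 CPM in 1wk SBI + Lac. At 3 weeks Tgfb1 stood at 12.8, 15.3 and 21.4 CPM in 3wk SBI and at 12.0, 11.7 and 9.34 CPM in 3wk SBI + Lac. The 3-week groups were separate, but by a narrow gap. The log2 fold change of Tgfb1 was -0.58 ± 0.24 (SE) at 1 week and -0.59 ± 0.26 at 3 weeks, with adjusted p of 0.222 and 0.210 in edgeR. Without replicate 3 of 3wk SBI the 3-week value was -0.33, and without replicate 1 of 1wk SBI the 1-week value was -0.30. The sum of 8 macrophage markers was 859 CPM in that replicate 3, against 380 and 407 in the rest of 3wk SBI and 352 to 589 in 3wk SBI + Lac, and its part in the Tgfb1 difference was not tested. Cd68, one of those markers, was named after its values were seen. Cd68 fell with lactation at both times, by 0.96 and 1.08 on the log2 scale (adjusted p of 0.0417 and 0.0150 in edgeR). No other of the 8 markers passed at either time. At 1 week 7 of the 8 had lower values and Cd163 a higher one (0.19). At 3 weeks all 8 had lower values. In stained muscle sections of the earlier time, the paper reports no significant difference in macrophages with lactation.

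Tgfb2, which also acts in development and in mature fibers, was the steadiest ligand, at 33.6 to 54.3 CPM over all libraries. It stood at 48.7, 47.8 and 48.3 CPM in 3wk SBI and at 45.4, 44.2 and 49.8 CPM in 3wk SBI + Lac. Its lactation effect was 0.18 (95% interval -0.09 to 0.45) at 1 week and -0.06 (-0.34 to 0.22) at 3 weeks. Both intervals held 0, the groups overlapped at both times, and the 1-week value was 0.016 without replicate 1 of 1wk SBI + Lac.

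Tgfb3 was the member that passed the test over time in rats without lactation. It stood at 48.8, 39.3 and 35.0 CPM in 1wk SBI and at 27.2, 29.5 and 31.3 CPM in 3wk SBI. With lactation the values were 26.0, 33.8 and 34.5 CPM at 1 week and 24.8, 26.8 and 24.1 CPM at 3 weeks. All 3wk SBI libraries were below all 1wk SBI libraries, and the lactating libraries were below the non-lactating ones at both times. The log2 fold change with lactation was -0.39 ± 0.13 (SE) at 1 week and -0.22 ± 0.14 at 3 weeks, with adjusted p of 0.133 and 0.376 in edgeR. With a library left out in turn the 1-week adjusted p of Tgfb3 in edgeR ran from 0.0445 to 0.524. The low end was without replicate 3 of 1wk SBI (-0.48), where 921 of 14803 genes passed, against 83 of 14599 with all libraries. The high end was without replicate 1 of 1wk SBI (-0.24).

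Comparisons of 3 weeks with 1 week use the same libraries as the lactation comparisons, and they also cross a change in the files: the 1-week counts were whole numbers and the 3-week counts were not. A total of 30 genes had 0 counts at 1 week but at least 100 summed counts at 3 weeks, and 0 genes showed the opposite, so time and counting cannot be told apart. In rats without lactation 1 of the 10 genes passed, against 5.05% of all genes, 4 of 10 did not overlap, against 21.6%, and 3 of 10 had an unadjusted p under 0.05, against 21.2%. That gene was Tgfb3, which fell by 0.48 on the log2 scale (SE 0.13, adjusted p = 0.0498 in edgeR). The call on Tgfb3 was lost in 4 of 6 fits that left out a library, with an adjusted p of up to 0.272 (without replicate 1 of 1wk SBI), and in 5 of 10 other settings. Acvr2b was higher at 3 weeks in every library of both pairs of groups, by 0.66 ± 0.20 (SE) without and 0.49 ± 0.20 with lactation (adjusted p of 0.0778 and 0.215 in edgeR). Tgfb2, at 41.1, 43.6 and 33.6 CPM in 1wk SBI, was higher in every 3wk SBI library, by 0.29 ± 0.13 (SE, adjusted p = 0.210 in edgeR). With lactation its groups overlapped between the times (0.05).

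In lactating rats 1 of the 10 genes passed over time, against 2.01% of all genes, 5 of 10 did not overlap, against 28.1%, and 4 of 10 had an unadjusted p under 0.05, against 18.1%. This gene was Ltbp2, whose product sits on the elastic microfibrils of the matrix and, unlike its relatives, is not known to bind latent TGF-beta. Ltbp2 stood at 5.38, 4.88 and 5.14 CPM in 1wk SBI + Lac and at 1.47, 1.30 and 0.989 CPM in 3wk SBI + Lac. It fell by 1.98 on the log2 scale (SE 0.40, adjusted p = 0.0263 in edgeR). With a library left out in turn the change of Ltbp2 ran from -2.08 to -1.88, but the call was lost in all 6 cases, with an adjusted p from 0.0537 to 0.119. Without lactation Ltbp2 stood at 4.69, 5.30 and 3.19 CPM at 1 week and at 1.50, 1.05 and 4.31 CPM at 3 weeks, a log2 fold change of -0.78 (adjusted p = 0.244 in edgeR). Without replicate 3 of 3wk SBI, the deepest library and the one with the highest macrophage sum, that change of Ltbp2 was -1.82 (adjusted p = 0.00406 in edgeR). Calls rose in general in that fit, to 2083 of 14763 genes, against 737 of 14599 with all libraries.

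The same library carried the 3-week lactation difference of Ltbp2. That difference was -0.98 ± 0.41 (SE, adjusted p = 0.187 in edgeR) with all libraries and 0.068 without replicate 3 of 3wk SBI. At 1 week the lactation effect on Ltbp2 was 0.22 ± 0.36 (SE), with 0.041 without replicate 3 and 0.38 without replicate 2 of 1wk SBI. No member's lactation effect was shown to differ between times: 0 of 10 passed the interaction test in edgeR, against 0.00685% of all genes, and 0 of 10 in DESeq2, against 0.075%. At an unadjusted p under 0.05 there was 1 of 10, against 4.42% of all genes, and it was Ltbp2 (-1.20 ± 0.54, SE), with -0.15 when replicate 3 of 3wk SBI was left out.

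**Figure D4:**
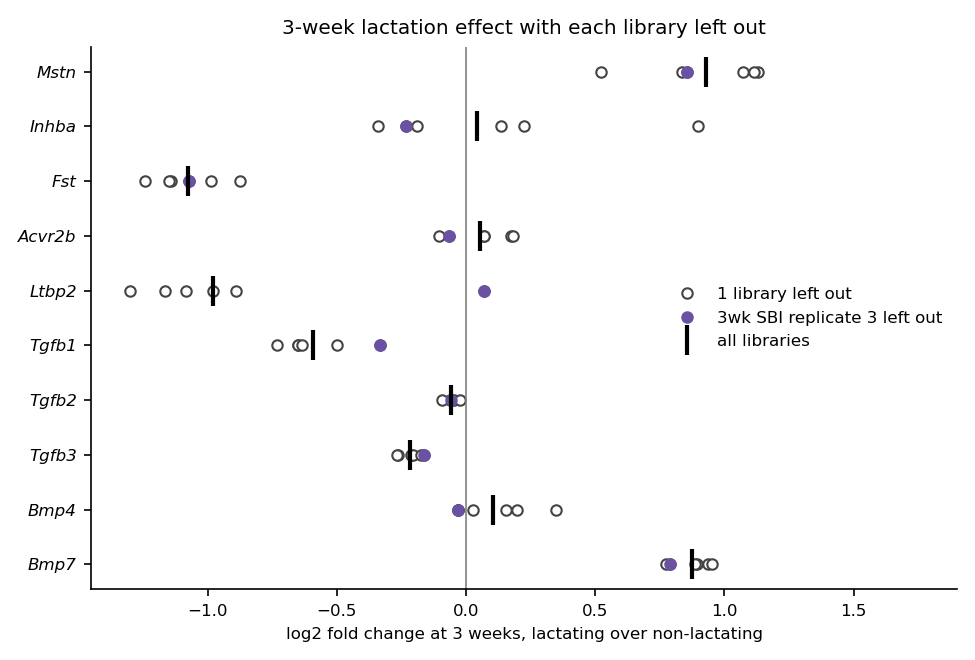
Log2 fold change of lactating over non-lactating libraries at 3 weeks (x axis) for each gene (y axis), with all libraries (bar) and with each library left out in turn (circles, filled for replicate 3 of 3wk SBI). Mstn and Bmp7 stay above 0 and Fst, Tgfb1, Tgfb2 and Tgfb3 below it in these fits, and Ltbp2 moves from -0.98 to 0.068.

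The upstream sequences of the 2 members that passed a test over time, Tgfb3 and Ltbp2, are shown to give the context of their start sites. Each is the 250 bases before the gene start in RefSeq (build GRCr8, matched by symbol), read along the gene's strand, and capitals mark the E-box CANNTG, a motif of myogenic factors, and the core Smad site CAGAC, on either strand. Tgfb3 (chr6:111456947-111457196, minus strand) held 1 E-box and 0 core Smad sites, and Ltbp2 (chr6:110257299-110257548, minus strand) held 0 E-boxes and 3 core Smad sites.
Tgfb3: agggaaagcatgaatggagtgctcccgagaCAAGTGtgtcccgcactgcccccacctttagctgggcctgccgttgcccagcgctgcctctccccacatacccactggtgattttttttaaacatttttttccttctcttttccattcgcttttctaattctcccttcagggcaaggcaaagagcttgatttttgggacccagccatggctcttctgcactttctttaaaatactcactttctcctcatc
Ltbp2: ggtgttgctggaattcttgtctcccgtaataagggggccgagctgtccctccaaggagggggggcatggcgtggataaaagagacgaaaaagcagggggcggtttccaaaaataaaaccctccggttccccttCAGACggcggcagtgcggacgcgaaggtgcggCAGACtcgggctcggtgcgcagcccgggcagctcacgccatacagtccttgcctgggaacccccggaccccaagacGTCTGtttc
Of 33469 promoters cut the same way, 65.5% held an E-box and 42.9% a core Smad site, so these matches are common and are given as a description of letters only.

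The other genes of the pathway, 78 by a list of roles, were examined beside the members, and 74 were tested. With lactation 0 of 74 passed at 1 week and 2 of 74 at 3 weeks in edgeR, both lower, beside 0.569% and 2.54% of all genes. A lower value was found for 51 and 47 of the 74, beside 50.5% and 52.3% of all genes, and the median log2 fold change was -0.11 and -0.10. An unadjusted p under 0.05 was found for 14 of the 74 at 1 week and 23 of the 74 at 3 weeks, beside 18.9% and 21.1% of all genes. At 1 week DESeq2 on all 12 libraries called 5 of the 74 to which it gave an adjusted p, against the 5.85% above.

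Gdf11, the ligand closest in sequence to myostatin, was 1 of the 2. It stood at 8.15, 7.12 and 12.4 CPM in 3wk SBI and at 4.69, 5.14 and 5.06 CPM in 3wk SBI + Lac, a change of -0.93 ± 0.23 (SE, adjusted p = 0.0454 in edgeR). Mstn, its relative, thus had higher and Gdf11 lower values in the lactating libraries at 3 weeks. The call on Gdf11 was kept in 2 of 6 fits without a library, and the change was -0.61 (adjusted p = 0.229) without replicate 3 of 3wk SBI. Ltbp4, which encodes a matrix protein that tethers latent TGF-beta, fell from 184, 193 and 197 CPM to 145, 127 and 123 CPM, by 0.54 on the log2 scale (SE 0.12, adjusted p = 0.0344 in edgeR). The call on Ltbp4 was kept in 1 of 6 such fits, with a change of -0.61 to -0.48 and an adjusted p of up to 0.128 (without replicate 3 of 3wk SBI + Lac).

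By role, the 8 TGF-beta target genes had the lowest medians with lactation, -0.54 at 1 week and -0.80 at 3 weeks, with 7 and 5 of 8 lower and 0 passing at either time. Col1a1, the main fibrillar collagen chain, stood at 702, 580 and 1757 CPM in 3wk SBI and at 512, 472 and 260 CPM in 3wk SBI + Lac (-1.29 ± 0.46, SE, adjusted p = 0.141 in edgeR). Its groups were separate, with replicate 3 of 3wk SBI again the highest. The 5 BMP target genes had medians of -0.11 and -0.14, with 4 of 5 lower at both times. Among them Id2, an inhibitor of differentiation factors, had values of -0.47 and -0.67 (adjusted p of 0.231 and 0.104 in edgeR).

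The 11 tested receptors had medians of -0.05 and 0.08, and 0 passed. Bmpr1a, a BMP receptor, had the only non-overlapping groups among them at 1 week, with a value of -0.09 ± 0.10 (SE). Acvr1b, the type I receptor that activins and myostatin use, stood at 34.2, 50.0 and 37.6 CPM in 3wk SBI and at 63.0, 67.8 and 63.2 CPM in 3wk SBI + Lac. The lactating libraries all stood above the others, by 0.67 ± 0.19 (SE) on the log2 scale (adjusted p = 0.0713 in edgeR). Of the 14 Smads and intracellular regulators, with medians of -0.05 and -0.11, the inhibitory Smad7 had a 3-week value of 0.72 ± 0.20 (SE, adjusted p = 0.0647 in edgeR), at 5.90, 6.01 and 7.79 CPM without and 13.5, 11.1 and 7.91 CPM with lactation. Smad6, the inhibitory Smad of the BMP branch, had a 1-week value of 0.65 ± 0.25 (SE, adjusted p = 0.185 in edgeR).

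Among the 15 tested genes of latency and activation, 12 and 11 had lower values with lactation at 1 and 3 weeks. Fbn2, a microfibril component, had a 1-week value of -1.25 ± 0.50 (SE, adjusted p = 0.197 in edgeR). Bmp1, a protease that frees myostatin and processes procollagen, had a 3-week value of -0.67 ± 0.21 (SE, adjusted p = 0.0988 in edgeR). The 12 other extracellular inhibitors had medians of -0.12 and -0.20, with 0 passing. Grem1, a BMP antagonist, had a 1-week value of -1.90 ± 0.73 (SE, adjusted p = 0.180 in edgeR), and Fstl3, a follistatin relative, a 3-week value of 0.72 ± 0.35 (adjusted p = 0.255), opposite in sign to Fst. The 9 other tested ligands had medians of 0.08 and -0.16. Bmp6, whose groups were separate at 1 week, had a value of 0.60 ± 0.20 (SE, adjusted p = 0.135 in edgeR), and Gdf15, a stress-induced ligand at 0 to 23 counts per library at 3 weeks, a 3-week value of -1.0 ± 0.75 (adjusted p = 0.470).

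**Figure D5:**
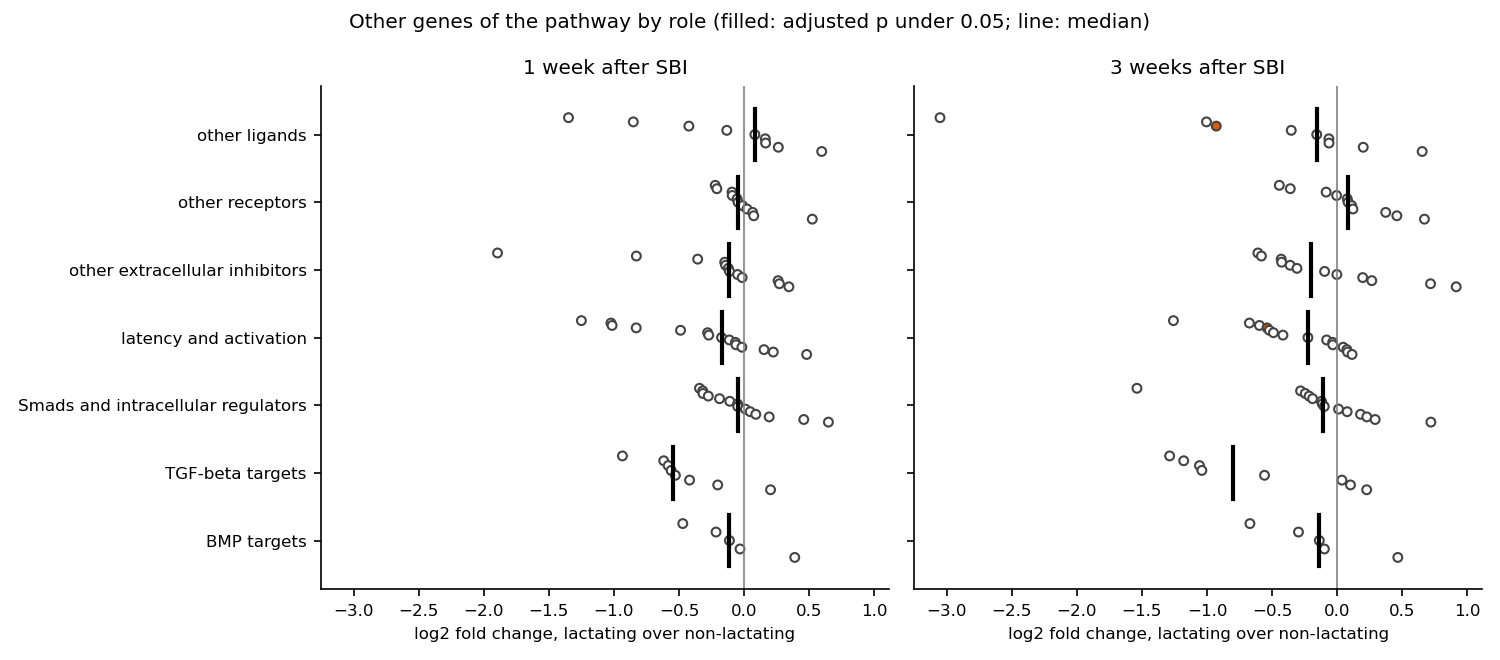
Log2 fold change of lactating over non-lactating libraries (x axis) of the 74 other tested pathway genes by role (y axis) at 1 week (left) and 3 weeks (right); points are genes, filled where the adjusted p was under 0.05, and bars are medians. The TGF-beta targets have the lowest medians, -0.54 and -0.80, and the 2 filled points at 3 weeks are Gdf11 and Ltbp4.

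Over time without lactation 5 of the 74 passed, beside 5.05% of all genes. As above, time and counting cannot be told apart here, and leaving out a library does not separate them. Ltbp4 rose by 0.91 (adjusted p = 0.00238 in edgeR), a call kept in all 6 fits without a library. Pcsk6, a convertase of ligand precursors, rose by 0.63 (adjusted p = 0.0147 in edgeR), and Smurf1, a ubiquitin ligase of Smads, by 0.44 (adjusted p = 0.0240). Chrd, which encodes the BMP antagonist chordin, fell by 1.19 (adjusted p = 0.0157 in edgeR), and Skil, a Smad corepressor, by 0.48 (adjusted p = 0.0154). These last 4 calls were lost without 1 library in 1 to 4 of 6 fits, with adjusted p of up to 0.0849 for Pcsk6, 0.0820 for Smurf1 and 0.0914 for Chrd (without replicate 1 of 1wk SBI) and 0.0862 for Skil (without replicate 2 of 3wk SBI). In lactating rats 1 of the 74 passed, beside 2.01% of all genes: Fn1, the gene of fibronectin, fell by 1.35 (adjusted p = 0.0491 in edgeR), and the call was lost in all 6 fits without a library (adjusted p from 0.0779 to 0.198).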

How the data were processed

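Bulk RNA-seq was measured in 12 libraries of rat pubocaudalis, 4 groups of 3, each a pool of 2 rats. Per the labels, an Illumina stranded mRNA kit was used and Salmon is among the named tools. The aligner, build and annotation are not given in the sources used here. The authors deposited raw counts per gene for the 1-week libraries and, for the 3-week libraries, values of which 26.6% to 44.0% per library had decimals, treated as estimated counts and rounded to whole numbers.

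edgeR 4.0.16 (R 4.3.3) was run with TMM scaling, its default low-count filter (14599 of 30206 genes kept) and a robust quasi-likelihood fit of the 4 groups over 12 libraries, with Benjamini-Hochberg adjustment over all genes tested. The study's cutoff of an absolute log2 fold change over 1 was not applied to calls. Intervals are 95% intervals of the fit. The procedure was tried on simulated counts for the 1-week lactation comparison only, with changes of at least 1 on the log2 scale. Smaller changes and the other comparisons were not simulated. Alternatives were other scalings and filters, DESeq2 1.42.0, fits on the compared libraries, a replicate block, thinning, and each library left out.

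Named genes were all 10 members with the 3 genes most like each, the pathway genes that passed, and in each role list the non-overlapping gene with the largest lactation value at each time. One gene that this rule names is not reported here. Members and lists were chosen with earlier results of these data known. The study's legend calls the pools technical replicates, so p-values measure only the spread between these samples. None of the 12 pairs of libraries within a group agreed within sampling noise.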

Additional observations from a re-analysis of the deposited data

How the results depend on the processing

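Of 830 values of the 10 genes recomputed under the alternatives, 766 kept their direction and their side of the threshold, 16 kept the direction but no longer passed, 11 newly passed and 37 changed sign. The number of members that passed for lactation at 1 week (0) became 1 in DESeq2 on all 12 libraries and ran from 0 to 1 with a library left out. At 3 weeks (0) it became 2 in both DESeq2 fits and 1 in edgeR on only the libraries compared, and stayed at 0 with each library left out. Over time without lactation (1) it became 0 with relative log expression or upper-quartile scaling, with either tool on only the libraries compared and with the replicate block, and 2 in DESeq2 on all 12, and ran from 0 to 3 with a library left out. Over time with lactation (1) it became 0 with the block, 0 with at least 10 counts required in every library, where Ltbp2 was no longer tested, 2 in DESeq2 on the libraries compared, and 0 with each library left out. Pathway genes that passed at 1 week (0) became 5 and 10 in DESeq2 and 1 after thinning, at 3 weeks (2) 7 and 6 in DESeq2 and 0 with the block, over time without lactation (5) 12 and 10 in DESeq2 and 1 in edgeR on the libraries compared, and over time with lactation (1) 4 and 10 in DESeq2, 6 in edgeR on the libraries compared and 0 with upper-quartile scaling, no filter, the block, thinning, or library sizes without erythroid, milk and mitochondrial genes. With a library left out these 4 counts ran from 0 to 3, 0 to 4, 1 to 21 and 0 to 0. Each pair of DESeq2 counts gives the fit on all 12 libraries, then the fit on only those compared. Calls over all genes moved too. In the same 4 comparisons they were 83, 371, 737 and 293 in the main fit. They were 818, 1079, 1341 and 864 in DESeq2 on all 12 libraries, and 276, 245, 128 and 1047 in edgeR on the libraries compared. DESeq2 on the libraries compared gave 1372, 673, 802 and 1371 such calls. With the block they were 13, 178, 450 and 154, and after thinning 151, 270, 750 and 208. With a library left out they ran from 2 to 921, 58 to 526, 102 to 2083 and 41 to 140. The 21 pathway genes and the 3 members arose without replicate 3 of 3wk SBI, where 2083 of all genes passed. At 1 week the 3 pathway genes and the 1 member arose without replicate 3 of 1wk SBI, where 921 of all genes passed. For the difference between times the pathway count (0) became 1 in DESeq2, beside 15 of all genes, and stayed at 0 with each library left out. Thinning turned Bmp4 at 1 week to -0.064, and thinning and the block turned the Tgfb1 difference between times to 0.16 and 0.0062 and the Fst time course without lactation to 0.021 and 0.074. With a library left out, sign changes occurred within these ranges: Bmp4, -0.069 to 0.13 at 1 week, -0.033 to 0.35 at 3 weeks and -0.063 to 0.32 for the difference; Fst, -0.66 to 0.065 at 1 week and -0.33 to 0.40 over time without lactation; Inhba, -0.34 to 0.90 at 3 weeks and -1.09 to 0.14 over time without lactation; Acvr2b, -0.10 to 0.18 and Ltbp2, -1.30 to 0.068 at 3 weeks; Tgfb1, -0.29 to 0.24 and Bmp7, -0.43 to 0.049 for the difference; Mstn, -0.21 to 0.14 over time without and -0.0065 to 0.59 with lactation; and Tgfb2, -0.053 to 0.23 over time with lactation. Where no construction shows it, the cause was not tested. Replicate numbers did not pair the samples: same-numbered libraries had correlations of -0.23 to 0.20 over 18 pairs, and others -0.20 to 0.29 over 36. Depth limited Inhba, Bmp7 and Ltbp2 most, with counts down to 1, 10 and 9 in single libraries.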

Other observations

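The genes whose CPM followed each member most closely were listed as a description, from Pearson's r of log2 CPM over 12 libraries after centring each time point, across 11527 genes with a mean of at least 1 CPM (11528 for Inhba, which is below that level itself). The libraries share depth and tissue makeup. For Mstn they were Paip1 (r = 0.889), Gemin7 (0.887) and Zfp771 (0.882). For Fst they were Wwp2 (0.943), a ubiquitin ligase, Chd1l (0.919) and Pth1r (0.916). For Bmp7 they were Jph2 (0.964), which couples the membrane to the calcium store in muscle, Mvb12b (0.956) and Lsmem1 (0.954). For Tgfb1 they were Add1 (0.973), Gnb1 (0.968) and Emp3 (0.964), and for Tgfb3 Klhdc8b (0.955), Avpi1 (0.949) and Map6d1 (0.948). For Ltbp2 they were Mgp (0.918), the matrix inhibitor of calcification, Irak4 (0.899) and Xdh (0.885). For Tgfb2 they were Castor2 (0.862), Arhgef16 (0.852) and Jkamp (0.844), for Bmp4 Gtf2b (0.919), Rbsn (0.907) and Cwf19l2 (0.894), for Acvr2b Hrct1 (0.913) and Crim1 (0.912), and for Inhba Polr1f (0.976), Fubp1 (0.906) and Kpnb1 (0.897).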
